A study of Mus musculus with 6 samples.

Results

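Store-operated calcium entry was followed at the transcript level through 7 genes, taken from the deposited expression table by gene name: the STIM genes Stim1 and Stim2, the Orai genes Orai1, Orai2 and Orai3, and the TRPC genes Trpc1 and Trpc4. Each name matched 1 row of the 55401 genes listed. The samples were C2C12 myotubes, cells of an immortalised mouse myoblast line that fuse into multinucleate muscle fibres in low-serum medium. SENP7 siRNA was given to 3 cultures, and 3 control cultures received GL2 siRNA, which is directed against firefly luciferase and has no target gene in the mouse. Both groups carried 100 pmol of siRNA for 3 days in DMEM with 2% horse serum and antibiotics, and the submitters describe the cultures of a group as biological replicates. SENP7 is a protease that takes SUMO, a small protein modifier, off other proteins. All libraries come from 1 cell line, and the sequence of the SENP7 siRNA is not given in the sources used here.

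In store-operated entry, the emptying of calcium from the endoplasmic or sarcoplasmic reticulum is sensed by STIM proteins in its membrane, which cluster and open Orai channels in the plasma membrane. Stim1 is the main sensor in skeletal muscle, and Stim2 responds to smaller falls of store calcium. Orai1 forms the principal channel pore, and loss of STIM1 or Orai1 function causes muscle weakness in humans and mice. TRPC channels are nonselective cation channels, and some of them have been linked to the same entry pathway in muscle cells.

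The promoters of the members that passed the test of expression are given here: Stim1 and Stim2, which rose, and Trpc1, which fell, with the calls of Stim2 and Trpc1 lost when single libraries were left out. Each sequence runs from 250 bases before to 50 bases after the gene's start in RefSeq (build GRCm38.p6, the build of the table) and is written 5′ to 3′ on the gene's strand. The Stim1 window is chr7:102267569-102267868 on the plus strand, the Stim2 window chr5:53998273-53998572 on the plus strand, and the Trpc1 window chr9:95750299-95750598 on the minus strand. Capitals mark GGGCGG, the GC box bound by Sp1 family factors, on either strand (CCGCCC where it lies on the other strand).
Stim1: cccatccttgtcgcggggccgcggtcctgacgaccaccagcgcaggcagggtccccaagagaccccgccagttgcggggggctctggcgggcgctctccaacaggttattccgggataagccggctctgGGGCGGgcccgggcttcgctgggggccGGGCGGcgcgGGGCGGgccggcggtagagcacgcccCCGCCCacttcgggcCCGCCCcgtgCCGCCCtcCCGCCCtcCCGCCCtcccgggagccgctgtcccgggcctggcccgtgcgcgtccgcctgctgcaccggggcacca
Stim2: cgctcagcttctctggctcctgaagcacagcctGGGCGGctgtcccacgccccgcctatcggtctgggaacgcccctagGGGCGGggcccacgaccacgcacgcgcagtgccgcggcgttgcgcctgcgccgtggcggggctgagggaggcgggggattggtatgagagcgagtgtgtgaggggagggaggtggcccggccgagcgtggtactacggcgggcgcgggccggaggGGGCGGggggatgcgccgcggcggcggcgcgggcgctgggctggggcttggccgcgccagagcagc
Trpc1: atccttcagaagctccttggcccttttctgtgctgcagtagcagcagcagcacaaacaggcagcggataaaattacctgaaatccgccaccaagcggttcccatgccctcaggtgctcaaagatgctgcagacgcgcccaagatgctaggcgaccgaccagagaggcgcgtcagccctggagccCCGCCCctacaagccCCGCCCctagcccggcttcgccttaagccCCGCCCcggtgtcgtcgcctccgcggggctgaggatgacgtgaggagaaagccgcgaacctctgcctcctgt

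The Stim1 window held 8 GC boxes, and the Stim2 and Trpc1 windows held 3 each. The windows of the members that did not pass or were not detected held them too, with 3 for Orai1, 2 for Orai2, 1 for Orai3 and 3 for Trpc4. At least 1 was present in 35.7% of 32851 RefSeq promoter windows of the same length. The G and C share was 78.7% in the Stim1 window, 76.7% in the Stim2 window and 63% in the Trpc1 window, against a median of 52.7% over all windows. The E-box letters CANNTG, the motif of myogenic factors, occurred 1 time in the Stim1 window, 0 times in the Stim2 window and 1 time in the Trpc1 window, and 72.3% of all windows held them. The letters GGAAA, the core of NFAT sites, and TATAAA, the TATA box, occurred in none of the 3 windows shown, on either strand, and in 61.3% and 13.6% of all windows. These matches describe the letters alone.

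The libraries held between 25223218 and 30865945 reads assigned to genes. Senp7, the siRNA target, averaged 300.3 ± 40.2 normalized counts in SENP7 siRNA cultures and 607.2 ± 46.9 in control siRNA cultures (SD, n = 3 each). A normalized count is the authors' read count of a gene divided by 1 factor per library, so that 1 unit is close to 1 read. Control replicate 3 stood apart on the leading axis of variation (-19.1, where control replicates 1 and 2 lay at -36.7 and -33.3 and the SENP7 siRNA libraries between 27.7 and 32.5). Within a group, the counts of SENP7 siRNA replicates 1 and 2 differed least (chi-square of 1.75 per gene, where sampling noise alone gives 1), and those of the other pairs by 7.47 to 38.3. All 8 myotube markers examined were present. Their summed normalized counts were 484807 to 557597 in SENP7 siRNA libraries and 408908 to 435508 in control siRNA libraries, with 3 of 8 markers rising (Ckm, Mymk and Actn2) and 0 falling. Over all tested genes 20.9% passed the test used throughout (10.2% rising, 10.7% falling). Of 6 myoblast and reserve cell markers 2 rose (Id3 and Pax7) and 2 fell (Spry1 and Cd34), with summed levels of 8788 to 10008 in SENP7 siRNA and 8319 to 9285 in control siRNA libraries. None of 6 proliferation markers passed (summed levels of 6600 to 8478 in SENP7 siRNA and 7531 to 9604 in control siRNA libraries). Of 6 fibroblast markers 4 were tested and 2 rose, Col3a1 and Dcn. Col1a1 (log2 fold change 0.43) and Pdgfra (-0.15) did not pass, and Lum and Thy1 were too low to test. Their summed levels were 187176 to 211878 in SENP7 siRNA and 112871 to 146545 in control siRNA libraries. Nearly all of that sum was Col1a1 and Col3a1, with means of 57503 and 136230 in SENP7 siRNA cultures. The part of these shifts in the values below was not tested, and in bulk cultures fewer cells of a type and less RNA per cell cannot be told apart.

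Both STIM transcripts were more abundant after SENP7 siRNA, Stim1 by a large step and Stim2 by a small one. The Orai transcripts did not pass the test, Trpc1 fell, and Trpc4 was not detected. Of the 6 members tested 3 passed, 2 rising and 1 falling. The test was limma's moderated test on log2(normalized count + 1) with Benjamini-Hochberg adjustment over 14668 genes and a threshold of 0.05, by which 20.9% of all tested genes passed (10.2% rising, 10.7% falling). In 4 of the 6 tested members (Stim1, Stim2, Orai2 and Trpc1) the values of the groups did not overlap, as in 39.6% of all tested genes. Stim1 was the only member that passed without control replicate 1 or 2 or without any 1 of the SENP7 siRNA libraries. Stim1 and Trpc1 passed without control replicate 3. Of the 14668 tested genes 4702 passed without control replicate 3 and 1619 to 2406 without any other library. With all libraries 3062 passed.

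**Figure D1:**
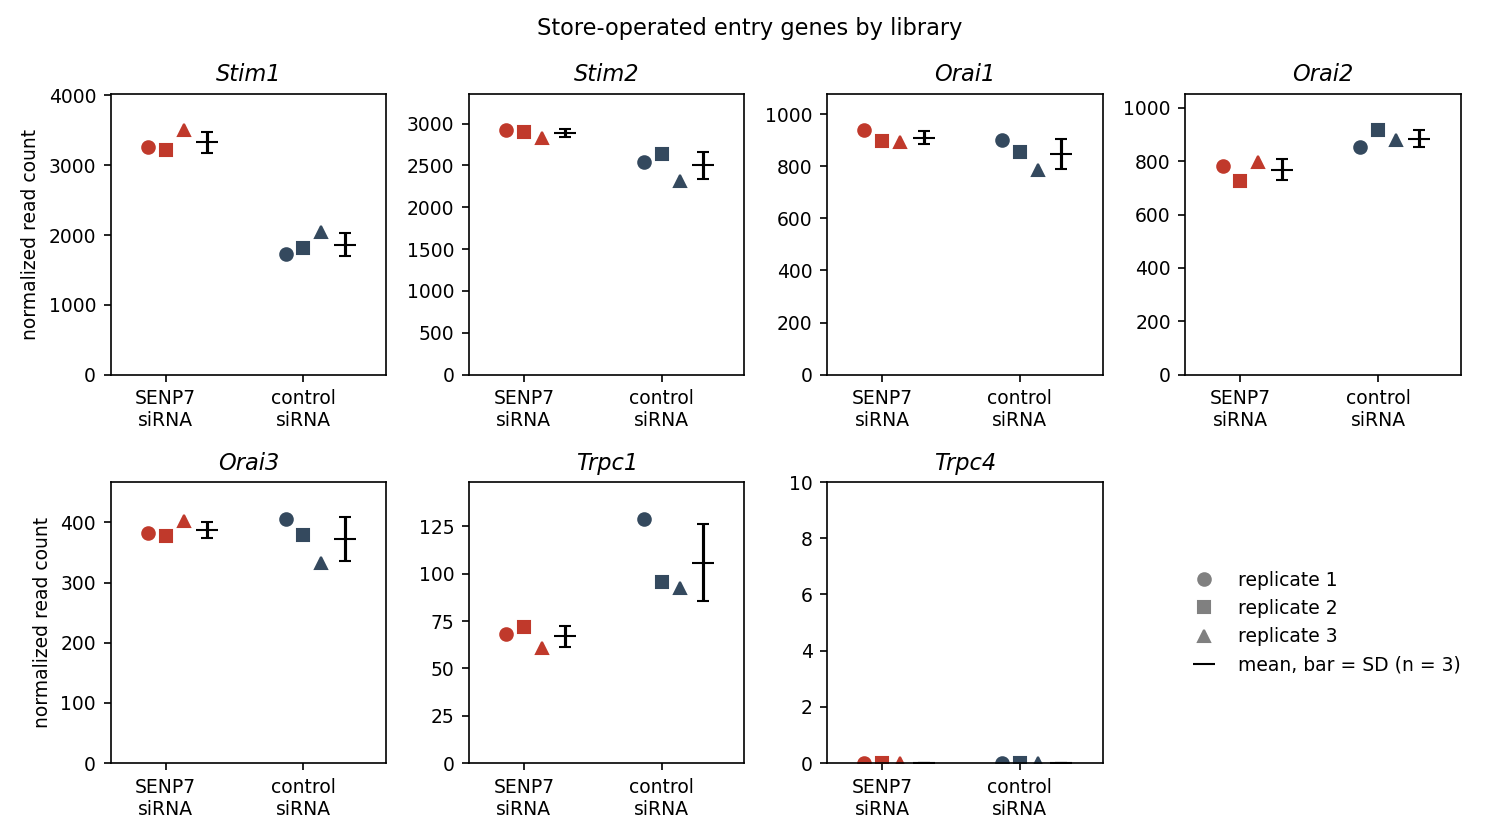
Normalized read counts of the 7 members (vertical axis, from 0) in each SENP7 siRNA and control siRNA library, with the mean and SD of 3 libraries beside the points. Stim1 lies between 3215 and 3502 in SENP7 siRNA libraries and between 1726 and 2048 in control siRNA libraries, while the Orai1 and Orai3 values of the groups overlap and Trpc4 is at 0.

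Stim1 encodes the store calcium sensor (ENSMUSG00000030987.5, chromosome 7, 102267806 to 102437319, plus strand, GRCm38.p6). It had 3267, 3215 and 3502 normalized counts in SENP7 siRNA replicates 1, 2 and 3, against 1726, 1815 and 2048 in control siRNA replicates 1, 2 and 3. Every SENP7 siRNA value was far above every control value, with a gap of 1167 between the nearest libraries, and the highest control was replicate 3. The mean was 3328 ± 153 in SENP7 siRNA and 1863 ± 166 in control siRNA cultures (SD, n = 3 each), a log2 fold change of 0.84 ± 0.07 (SE) or 1.79-fold (95% interval 1.59 to 2.01, limma adjusted p = 0.000174). A change of this size in either direction was seen in 6.93% of tested genes, and Stim1 ranked 110 by p-value. It rested on 10384 reads in the SENP7 siRNA libraries and 5448 in the control siRNA libraries. Without control replicate 3 the log2 fold change was 0.91, and it passed in all 15 alternative settings (0.79 to 0.91). Counts per gene do not separate the long muscle splice form of Stim1 from the common one.

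Stim2 encodes the sensor that responds to smaller losses of store calcium (ENSMUSG00000039156.19, chromosome 5, 53998499 to 54121057, plus strand). It had 2922, 2898 and 2832 normalized counts in SENP7 siRNA replicates 1, 2 and 3, against 2545, 2640 and 2315 in control siRNA replicates 1, 2 and 3. The groups did not overlap, but the nearest libraries were only 192.3 apart, and control replicate 3 was the lowest. Stim2 averaged 2884 ± 46.3 in SENP7 siRNA and 2500 ± 167 in control siRNA cultures (SD, n = 3 each), which is 1.16-fold (95% interval 1.05 to 1.28, limma adjusted p = 0.0462). A change as large was found in 42.4% of tested genes. This call was lost without any 1 of the libraries (adjusted p 0.0586 to 0.158) and when low genes were left in (0.068), and the authors' deposited table gives an adjusted p of 0.0811. By the adjusted p in the authors' deposited table, Stim1 and Trpc1 passed, 2 members, beside 9.26% of the 27493 genes for which it gives one. Those 27493 include low genes that the main test left out, so this share is not comparable with the 20.9% of the main test. DESeq2 run on the 14668 genes of the main test called 3010 of them, with 3 of the members.

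**Figure D2:**
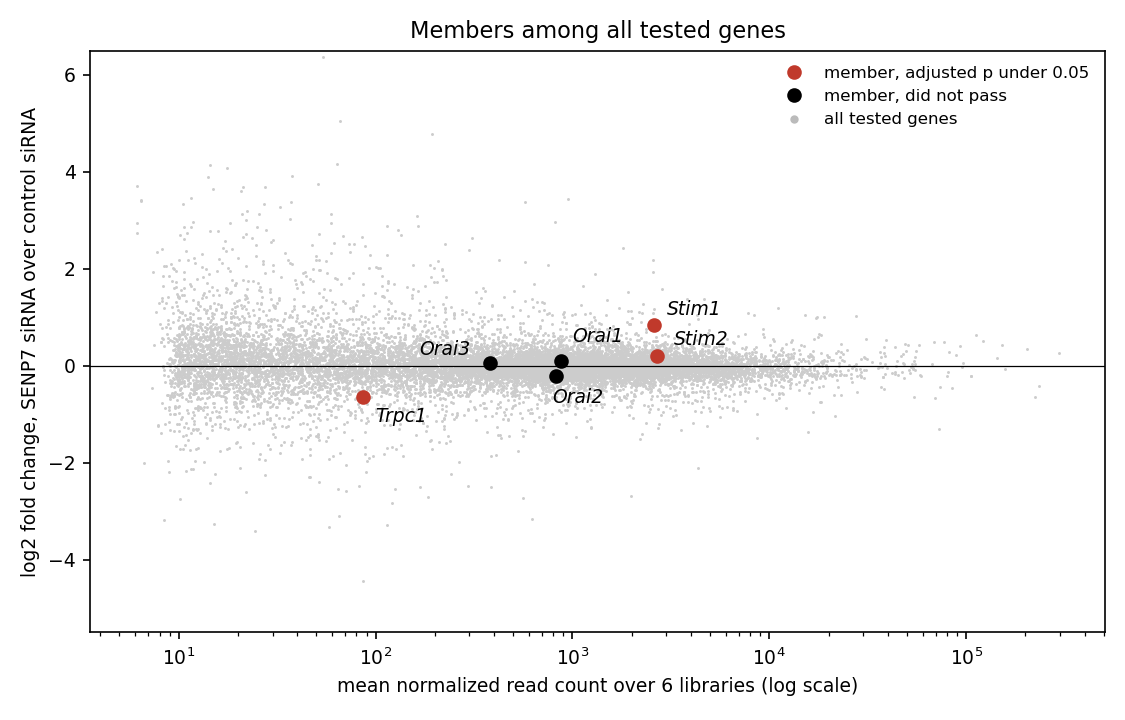
Log2 fold change, SENP7 siRNA relative to control siRNA (vertical axis), against the mean normalized count over 6 libraries (log scale) for the 14668 tested genes, with the 6 tested members as large points. Stim1 (0.84) and Trpc1 (-0.64) lie outside the dense band, and Stim2 (0.21) and the Orai genes (-0.20 to 0.10) lie within it.

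Orai1 encodes the principal pore subunit (ENSMUSG00000049686.14, chromosome 5, 123015074 to 123030456, plus strand). Its normalized counts were 938.7, 895.4 and 895.2 in SENP7 siRNA replicates 1, 2 and 3, against 900.1, 855.6 and 786 in control siRNA replicates 1, 2 and 3. The groups overlapped, with control replicate 1 above SENP7 siRNA replicates 2 and 3. The log2 fold change was 0.10 (95% interval -0.05 to 0.26, limma adjusted p = 0.326), and the interval of the fold runs between 0.964 and 1.2. An exon of Gm2479 on the opposite strand covers 0.305% of its exon length.

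Orai2 encodes a channel subunit that can join Orai1 in mixed channels (ENSMUSG00000039747.11, chromosome 5, 136147459 to 136170713, minus strand). It had 783.4, 724.3 and 798.6 normalized counts in SENP7 siRNA replicates 1, 2 and 3, against 853.7, 916.7 and 881.3 in control siRNA replicates 1, 2 and 3. All SENP7 siRNA values were below all control values, with 55.1 between the nearest libraries. The fold was 0.869 (95% interval 0.783 to 0.966), and it missed the threshold (limma adjusted p = 0.0633, unadjusted p = 0.0147). It did not pass in any of 15 alternative settings either (adjusted p 0.0511 to 0.239).

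Orai3 encodes the remaining paralog, a pore subunit found in mammals (ENSMUSG00000043964.14, chromosome 7, 127769815 to 127775150, plus strand). Its normalized counts were 382.4, 376.6 and 401.7 in SENP7 siRNA replicates 1, 2 and 3, against 406.2, 378.3 and 332.7 in control siRNA replicates 1, 2 and 3. The SENP7 siRNA values lay within the range of the control values. The log2 fold change was 0.06 (95% interval -0.15 to 0.27, limma adjusted p = 0.695), and without control replicate 3 it was -0.02.

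Trpc1 encodes a TRPC channel subunit that is widely expressed, also in skeletal muscle (ENSMUSG00000032839.13, chromosome 9, 95705082 to 95750375, minus strand). It was a low transcript, with 68.3, 71.7 and 60.6 normalized counts in SENP7 siRNA replicates 1, 2 and 3, against 129, 95.7 and 92.4 in control siRNA replicates 1, 2 and 3. The groups did not overlap, and control replicate 1 was well above control replicates 2 and 3. The mean was 66.9 ± 5.66 in SENP7 siRNA cultures and 105.7 ± 20.3 in control siRNA cultures (SD, n = 3 each), a fold of 0.642 (95% interval 0.494 to 0.835, limma adjusted p = 0.0266). It rested on 208 reads in the SENP7 siRNA libraries and 309 in the control siRNA libraries. The call was lost without control replicates 1 or 2 (adjusted p = 0.0746 and 0.0635) and without SENP7 siRNA replicates 1, 2 or 3 (0.0774, 0.0631 and 0.0812). The log2 fold change stayed between -0.73 and -0.49 over 15 alternative settings.

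Trpc4, which encodes another TRPC subunit (ENSMUSG00000027748.11, chromosome 3, 54156035 to 54318471, plus strand), had 0 reads in each of the 6 libraries. A count of 0 allows up to 3 reads per library, for counting error only, so Trpc4 was not detectable at this depth and could not be tested. In the GENCODE M21 transcripts of the 7 members, no 75-base window occurred in a transcript of another gene, on either strand. The search was for exact matches only, so it does not exclude copies that differ by single bases.

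**Figure D3:**
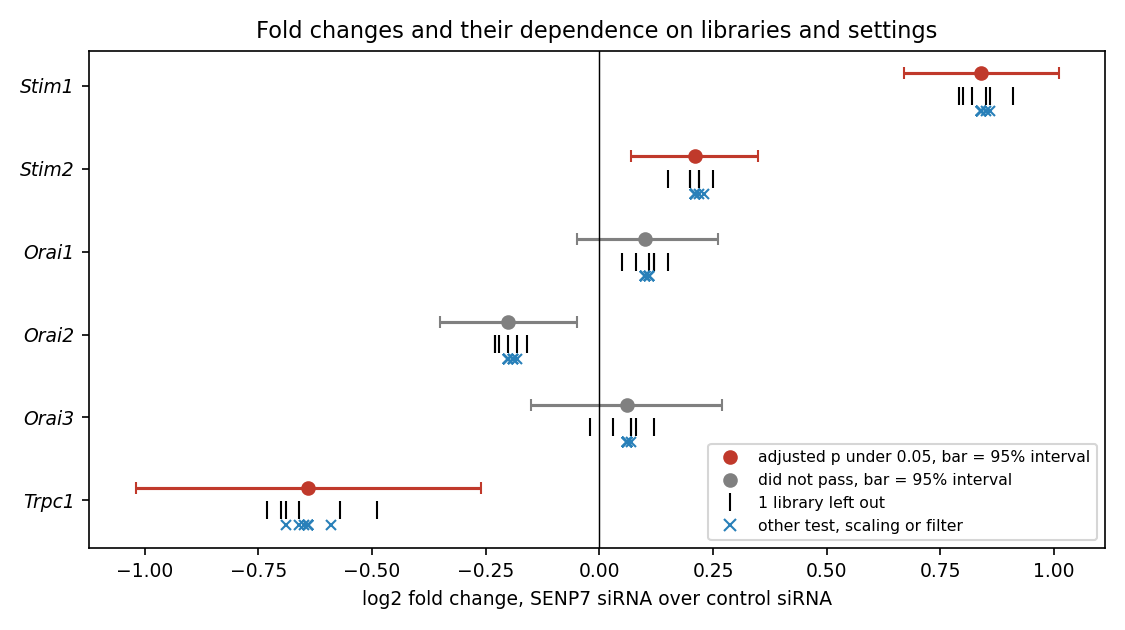
Log2 fold change of the 6 tested members with its 95% interval (circles), with 1 library left out at a time (ticks) and under the other tests, scalings and filters (crosses). Stim1 keeps to 0.79 to 0.91 and Trpc1 to -0.73 to -0.49, while the values of Orai3 lie on both sides of 0.

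Levels were compared between members per kilobase of exon, as normalized counts divided by the gene length in the table. In SENP7 siRNA cultures Stim2 was highest at 561.9 ± 9.01 per kilobase, followed by Orai1 at 396.4 ± 10.9, Stim1 at 320.9 ± 14.8, Orai3 at 180.7 ± 6.13, Orai2 at 126.5 ± 6.46 and Trpc1 at 8.33 ± 0.705 (SD, n = 3). In control siRNA cultures the level per kilobase was 487.1 ± 32.6 for Stim2, 369.1 ± 25.1 for Orai1, 179.6 ± 16 for Stim1, 173.9 ± 17.3 for Orai3, 145.5 ± 5.2 for Orai2 and 13.2 ± 2.52 for Trpc1 (SD, n = 3). The order was the same in both groups, but Stim1 and Orai3 did not differ beyond their spread in control cultures, whereas all neighbours lay apart in SENP7 siRNA cultures.

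The length used decides part of that order, because the table gives Stim1 the 10371 bases of all its annotated exons and the longest coding transcript has 4362 bases. Per kilobase of the longest coding transcript, Stim1 was at 762.9 ± 35.1 in SENP7 siRNA and 427 ± 38.1 in control siRNA cultures, and Stim2 at 584.5 ± 9.38 in SENP7 siRNA and 506.7 ± 33.9 in control siRNA cultures (SD, n = 3 each). On that scale the mean of Stim1 was above that of Stim2 in SENP7 siRNA cultures and below it in control siRNA cultures. In control replicate 3 both were level, at 469.4 for Stim1 and 469.2 for Stim2. Orai2 changed its rank as well, at 192.7 ± 9.84 in SENP7 siRNA and 221.5 ± 7.92 in control siRNA cultures, above Orai3 in both.

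The balance between the STIM genes was measured as the share of Stim1. This share of the summed Stim1 and Stim2 level per kilobase of table length was 35.6%, 35.4% and 38% in SENP7 siRNA replicates 1, 2 and 3, against 25.1%, 25.4% and 30.4% in control siRNA replicates 1, 2 and 3. The groups did not overlap, and control replicate 3 was nearest to the SENP7 siRNA libraries. The difference was 9.36 percentage points (exact permutation test, two-sided, p = 0.1, the smallest that 3 against 3 libraries allow). By the longest coding transcripts the shares were 56.6% ± 1.48 in SENP7 siRNA and 45.7% ± 3.72 in control siRNA cultures (SD, n = 3 each), a difference of 10.9 points.

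Within the Orai family, Orai1 made up 56.3% ± 1.16 of the level per kilobase in SENP7 siRNA and 53.6% ± 0.6 in control siRNA cultures (SD, n = 3 each). Orai2 made up 18% ± 0.57 in SENP7 siRNA and 21.2% ± 1.59 in control siRNA cultures. Orai3 made up 25.7% ± 0.766 in SENP7 siRNA and 25.2% ± 1.05 in control siRNA cultures. Neither the Orai1 nor the Orai2 shares of the groups overlapped (exact permutation test, two-sided, p = 0.1 each, 0.15 after adjustment over the 3 shares), and those of Orai3 did (p = 0.6). The summed STIM level was 1.25 ± 0.0212 times the summed Orai level in SENP7 siRNA cultures and 0.97 ± 0.0477 times in control siRNA cultures (SD, n = 3 each). By the longest coding transcripts the ratio was 1.57 ± 0.0331 in SENP7 siRNA and 1.1 ± 0.0744 in control siRNA cultures. Each ratio separated the groups with no overlap (exact permutation test, two-sided, p = 0.1, the smallest that 3 against 3 libraries allow). The ratios were not among the planned tests, and they rest on the same counts as the single genes. The summed Orai level itself was 703.6 ± 16.4 per kilobase in SENP7 siRNA and 688.5 ± 41.1 in control siRNA cultures, a difference within the spread.

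**Figure D4:**
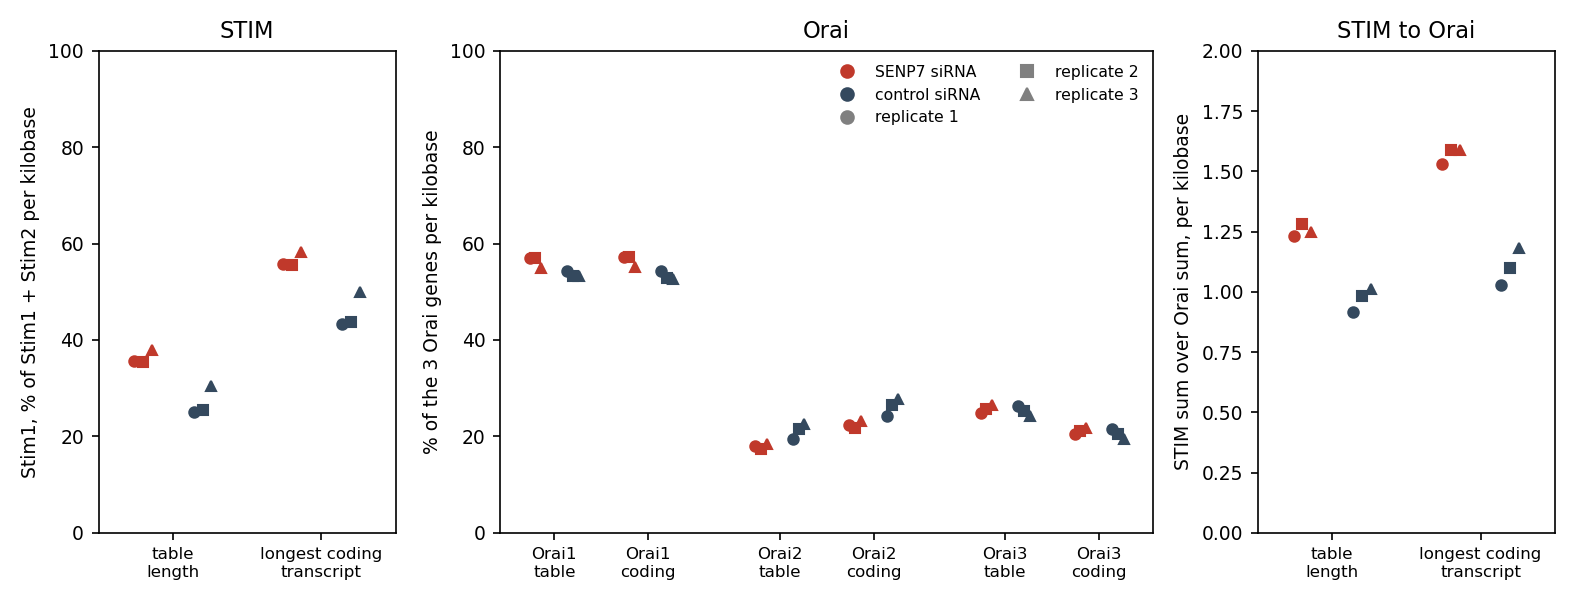
Share of Stim1 among the STIM genes (left), of each Orai gene among the 3 (middle) and the ratio of summed STIM to summed Orai levels (right), per kilobase of the table's length or of the longest coding transcript, as 1 point per library. Stim1 shares are 35.4% to 38% in SENP7 siRNA libraries and 25.1% to 30.4% in control siRNA libraries by the table's length.

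Of 31 partners and modulators of the pathway 26 were tested, of which 1 rose, 5 fell and 20 did not pass. The share called was 23.1%, near the 20.9% of all genes (10.2% rising, 10.7% falling), and the median log2 fold change was -0.08 beside 0.00 over all genes. The rise was Sept4, a septin of a family of filament proteins that organise membranes. It had 165.9, 150.8 and 134.5 normalized counts in SENP7 siRNA and 22.2, 30 and 26.3 in control siRNA libraries (replicates 1, 2 and 3), 5.59-fold (limma adjusted p = 5.29e-05). All SENP7 siRNA values of Sept4 were far above the controls.

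The 5 falling partners encode proteins of scaffolds and of membranes. Homer3, a scaffold that binds calcium channels, averaged 1046 ± 31 in SENP7 siRNA and 1366 ± 77.7 in control siRNA cultures (fold 0.767), and exons of Ddx49 on the other strand cover 25.4% of its exon bases. The strand setting of the counting is not stated, so reads of such pairs cannot be told apart here. Gramd2, a protein of contacts between reticulum and plasma membrane, was low, at 16.1 ± 3.27 in SENP7 siRNA and 37.4 ± 3.85 in control siRNA cultures (fold 0.44). Jph1, the junctophilin that ties the reticulum to the plasma membrane at the muscle triad, averaged 2672 ± 200 in SENP7 siRNA and 3314 ± 287 in control siRNA cultures (fold 0.807). Unc93b1, a reticulum protein known for the trafficking of Toll-like receptors, averaged 584.8 ± 3.57 in SENP7 siRNA and 717.3 ± 28.2 in control siRNA cultures (fold 0.816). The fifth was Vapb, a tether of reticulum contacts (fold 0.878).

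Saraf, which inactivates store-operated entry, missed the threshold at 3848 ± 43.7 in SENP7 siRNA and 4364 ± 211 in control siRNA cultures (limma adjusted p = 0.0563). Tmem110, the STIM activating enhancer, had a log2 fold change of -0.10 and did not pass either. Without control replicate 3, 10 partners passed (1 rising, 9 falling). Only 3 passed without control replicate 2 or without SENP7 siRNA replicate 1 or 2 (Sept4 rising, Homer3 and Gramd2 falling). Of all 14668 tested genes 4702 passed without control replicate 3. Between 1619 and 1660 passed in the fits with 3 partners, beside 3062 with all libraries. The call of Jph1 was lost without control replicate 2 or any 1 of the SENP7 siRNA libraries (adjusted p 0.0567 to 0.105). That of Unc93b1 was lost without control replicate 2 or SENP7 siRNA replicate 1 or 2 (0.0526 to 0.0592).

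Among the other TRPC genes, Trpc2, Trpc6 and Trpc7 had 0 reads in all libraries. Of 26 other TRP channel genes 10 were tested, of which 3 rose, 0 fell and 7 did not pass (30% called beside 20.9% over all genes, median log2 fold change 0.04).

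Trpv1, the heat and capsaicin channel, had 46.1, 35.3 and 32.2 normalized counts in SENP7 siRNA and 3.02, 1.11 and 8.75 in control siRNA libraries (replicates 1, 2 and 3) and the groups lay far apart. It passed the filter on low values only through the SENP7 siRNA libraries, where it is high, so its place among the 3 rises supports nothing about the list. The fold was 8.82 with a pseudocount of 1 and 3.83 with a pseudocount of 8, on 13 reads in all control siRNA libraries. Pkd2l2, a polycystin channel gene, averaged 83.9 ± 5.51 in SENP7 siRNA and 48.3 ± 1.9 in control siRNA cultures (1.72-fold), with Fam13b exons across it on the other strand (10.9% of its exon bases). Trpm4, a calcium-activated cation channel, averaged 1290 ± 25.6 in SENP7 siRNA and 1112 ± 43 in control siRNA cultures (1.16-fold). That call was lost without control replicate 2 or any 1 of the SENP7 siRNA libraries (adjusted p 0.0597 to 0.132), and when low genes were left in (0.0783).

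Of 25 genes of store release, refilling and calcium extrusion 21 were tested, of which 8 rose, 1 fell and 12 did not pass. This is 42.9% called beside 20.9% over all genes, with a median log2 fold change of 0.04 beside 0.00. Atp2b3, a plasma membrane calcium pump known from neurons, had 54.1, 51.4 and 44.5 normalized counts in SENP7 siRNA and 5.04, 4.45 and 2.92 in control siRNA libraries (replicates 1, 2 and 3) and the lowest SENP7 siRNA library was well above the highest control. It too passed the filter only through the SENP7 siRNA libraries, so its place among the 8 rises supports nothing about the list. The fold was 10.1 with a pseudocount of 1 and 4.78 with a pseudocount of 8, on 12 reads in all control siRNA libraries.

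Both sodium-calcium exchanger genes that were tested rose. Slc8a3 averaged 166.9 ± 13.1 in SENP7 siRNA and 84.8 ± 19.5 in control siRNA cultures (1.99-fold), and Slc8a1 averaged 679.4 ± 81.1 in SENP7 siRNA and 410.2 ± 123 in control siRNA cultures (1.7-fold). The ryanodine receptor gene Ryr3, a store release channel of developing muscle, averaged 1991 ± 255 in SENP7 siRNA and 1250 ± 188 in control siRNA cultures (1.6-fold). Aven exons on the other strand cover 4.83% of the Ryr3 exon bases. Plcb4, a phospholipase that makes the store-releasing messenger inositol trisphosphate, averaged 1652 ± 168 in SENP7 siRNA and 1034 ± 220 in control siRNA cultures (1.61-fold). Of the other genes that passed, the inositol trisphosphate receptor gene Itpr1 (1.41-fold), the phospholipase gene Plcd4 (1.96-fold) and the calcium pump gene Atp2b4 (1.17-fold) rose. The phospholipase gene Plcd1 fell (fold 0.841). Itpr3, with more counts than Itpr1, was lower at 3668 ± 232 in SENP7 siRNA and 4514 ± 564 in control siRNA cultures. It did not pass (limma adjusted p = 0.0511). Itpr2 (log2 fold change -0.04) and Ryr1 (0.16), the ryanodine receptor gene with the higher counts, did not pass either.

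The refilling pumps did not pass. Atp2a1, the fast-muscle calcium pump, averaged 41824 ± 2640 in SENP7 siRNA and 34643 ± 3540 in control siRNA cultures (limma adjusted p = 0.0737), and Atp2a2, the slow and housekeeping form, averaged 34626 ± 1740 in SENP7 siRNA and 40902 ± 4970 in control siRNA cultures (0.131). Neither pump gene overlapped between the groups. Without control replicate 2 or SENP7 siRNA replicate 1 or 2 the list had 4 calls, and without SENP7 siRNA replicate 3 it had 5. Without SENP7 siRNA replicate 1 or 2 the 4 were Atp2b3, Slc8a3, Ryr3 and Plcb4. The calls over all 14668 tested genes fell as well, from 3062 to between 1619 and 1660 in the fits with 4 calls. Without SENP7 siRNA replicate 3 they were 2200. The call of Slc8a1 was lost without control replicate 2 or any 1 SENP7 siRNA library (adjusted p 0.0582 to 0.091) and when low genes were left in (0.111), and that of Plcb4 without control replicate 2 (0.0509).

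**Figure D5:**
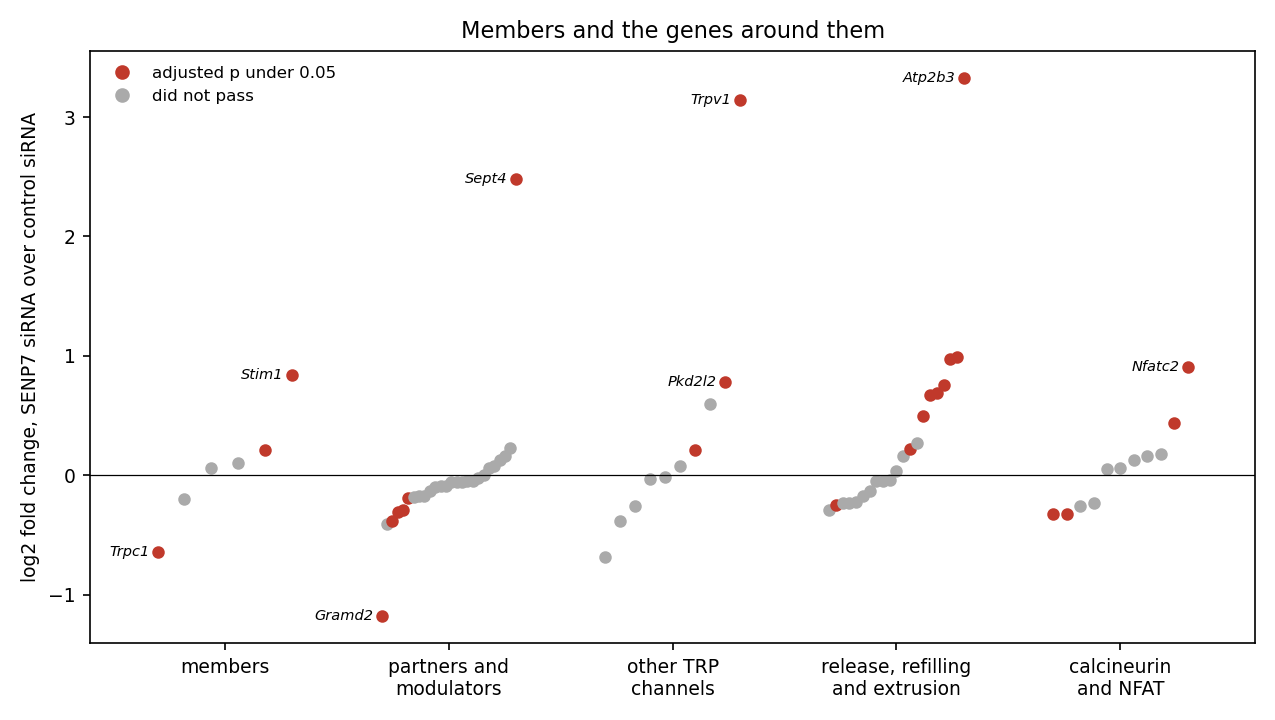
Log2 fold change, SENP7 siRNA relative to control siRNA, for each tested gene of the 7-gene set and of the 4 lists around it, ordered within each list; red points passed the test. Sept4 (2.48), Trpv1 (3.14) and Atp2b3 (3.33) stand above all others, and most partners lie near 0.

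Calcineurin is the phosphatase, and NFAT the transcription factors, through which store-operated entry reaches the nucleus. Of 11 genes of this list tested, 2 NFAT genes rose, 1 NFAT gene and 1 calcineurin regulator gene fell, and 7 did not pass (36.4% called beside 20.9% over all genes, median log2 fold change 0.06). Nfatc3, an NFAT factor of muscle, averaged 2184 ± 59.6 in SENP7 siRNA and 1609 ± 157 in control siRNA cultures (1.36-fold, limma adjusted p = 0.00448), and Nfatc2 averaged 125.8 ± 11.9 in SENP7 siRNA and 68 ± 19.6 in control siRNA cultures (1.88-fold). Nfatc4 averaged 569.6 ± 49.9 in SENP7 siRNA and 710.7 ± 66.6 in control siRNA cultures (fold 0.802). Rcan3, a calcineurin regulator, averaged 540.8 ± 28.5 in SENP7 siRNA and 674.2 ± 15.3 in control siRNA cultures (fold 0.802). None of the calcineurin subunit genes Ppp3ca, Ppp3cb, Ppp3cc and Ppp3r1 passed, with log2 fold changes of 0.05 to 0.18. Without control replicate 2 only Nfatc3 passed, and only Nfatc2 and Nfatc3 passed without SENP7 siRNA replicate 1 or 2. The call of Nfatc4 was also lost without control replicate 3 (adjusted p = 0.0505). Calls over all 14668 tested genes were 1619 to 1660 without control replicate 2 or SENP7 siRNA replicate 1 or 2. They were 4702 without control replicate 3 and 3062 with all libraries.

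The genes closest to each changed member were sought by the root-mean-square difference between log2 profiles over the 6 libraries, each centred on its own mean, among 11228 other genes with a mean of at least 50. Nearest to Stim1 were Ncoa1, a nuclear receptor coactivator (difference 0.014, 1349 ± 51.4 in SENP7 siRNA and 754.7 ± 58.7 in control siRNA cultures), Zfp3, a zinc finger gene (0.031), and Vash2, a tubulin carboxypeptidase (0.057). Nearest to Stim2 were Dlst, of the 2-oxoglutarate dehydrogenase complex (0.019), Bzw2 (0.024) and the SUMO gene Sumo2 (0.024, 750.8 ± 14.5 in SENP7 siRNA and 633.8 ± 38.9 in control siRNA cultures). Of these, Bzw2 did not pass the test (limma adjusted p = 0.0612). The calls of Dlst (0.0456) and Sumo2 (0.0361) were lost in 5 and 6 of 15 alternative settings. Nearest to Trpc1 were Ccdc122 (0.044), Tmem256 (0.055) and the centrin gene Cetn4 (0.06). With 6 libraries in 2 groups many genes have like profiles, and the likeness is a description.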

How the data were processed

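RNA-seq of 6 libraries (poly(A) RNA from 500 ng total RNA, directional kit, per the labels' protocols) was processed with STAR 2.6.1d, Trim Galore 0.6.4, bcl2fastq, DESeq2 and featureCounts 1.6.4 on build GRCm38.p6, per the submitters' processing notes, which list names without their order. No strand setting or annotation release is stated there. The deposited values are a signal, the authors' normalized read counts. The authors also deposited a log2 fold change with its standard error, a Wald score and p-values, per the file headers. All positive values were whole multiples of 1 step per library (100% within 0.1 read), so reads were recovered for the count tests.

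Members and lists were chosen with earlier results of these data known. limma 3.58.1 (R 4.3.3; trend, robust, two-sided, no covariate) was fitted on log2(value + 1) for genes with at least 10 in at least 3 libraries; folds on this scale understate low genes. The text names all members, Senp7, in each list the passing genes (the 5 of smallest adjusted p where more passed) and the 3 most similar profiles (predicted models and pseudogenes left out); other genes were named after their values were seen. Alternatives were edgeR 4.0.16, DESeq2 1.42.0, limma-voom, quantile scaling, filters, pseudocounts of 0.5 and 8, the replicate block and each library left out; lengths of the longest coding transcripts and the authors' adjusted p were added after seeing the data. In simulated data with 14309 genes, 67 were changed 1.5-fold, 67 were changed 2-fold and 66 were changed 4-fold. Of these 83.6%, 97% and 100% were called, and beside them 19 unchanged genes were called. The changed genes all had a control mean of at least 50, so these rates do not cover lower genes. Far fewer genes were changed there than passed in the data. Each gene was drawn independently, so no simulated library stood apart over many genes as control replicate 3 did in the data. The submitters call the replicates biological, but nothing says that the cultures were started separately, so p-values measure the spread between these libraries, which may be technical.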

Additional observations from a re-analysis of the deposited data

How the results depend on the processing

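Stim1 passed in all 15 alternative settings. The number of genes called was 2666 to 4175 over the settings that keep all libraries, and 1619 to 4702 with 1 library left out (3062 as reported). The members called were 1 to 2 with 1 library left out. The partners called were 3 to 10, the other TRP channels 2 to 4, the genes of release, refilling and extrusion 4 to 10, and the calcineurin and NFAT genes 1 to 5 with 1 library left out. Fewer libraries were fitted in those settings, and the cause of the different counts was not tested. The log2 fold change of Orai3 was -0.02 to 0.12 with 1 library left out, and the difference in its share of the Orai genes was -0.0616 to 0.985 percentage points. The Stim1 share differed by 8.43 to 11.1 points with 1 library left out, the Orai1 share by 2.38 to 3.41 and the Orai2 share by -4.08 to -2.52. Deviations from the group means in libraries with the same replicate number had correlations of 0.13, 0.0624 and 0.251. Between libraries with different numbers they were -0.22 to 0.141. SENP7 siRNA replicate 2 correlated best with control replicate 1 (0.141), and SENP7 siRNA replicates 1 and 3 with their own number. The main test did not pair the cultures, and whether the numbers mark pairs was not settled. With the replicate number as a block 4175 genes were called, and the members called were again 3. In that fit the limma adjusted p was 0.0191 for Stim2 and 0.0128 for Trpc1. By the authors' deposited adjusted p, 2 members passed, Stim1 and Trpc1. Depth limits Trpc1, with 208 and 309 reads in the SENP7 siRNA and control siRNA libraries, and Trpc4, with 0 reads.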
